A study of Mus musculus with 108 samples.

Results

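The genes of oxidative phosphorylation (OXPHOS) were examined in chromatin state maps of mouse liver. They were chosen by symbol among the autosomal protein-coding RefSeq genes of mm10, as those that begin with Nduf, Uqcr, Cox4, Cox5, Cox6, Cox7, Cox8 or Atp5, together with Sdha, Sdhb, Sdhc, Sdhd, Cyc1 and Cycs. This gave 95 genes of 20558, comprising 39 subunits and 8 assembly factors of complex I, 4 genes of complex II, 9 of complex III, 1 cytochrome c gene, 17 genes of complex IV and 17 of ATP synthase. The complexes were assigned by symbol alone, so Ndufa4 and Ndufa4l2 are counted under complex I because they begin with Nduf. The complex in which each protein is found was not checked. All livers came from female C57BL/6 mice and had been fixed in formalin and embedded in paraffin, and ChIP-seq was carried out for H3K4me3, H3K27me3, H3K27ac and H3K4me1. The SD 3m group held mice on a standard diet killed at 3 months of age (8 mice, 30 libraries), and the SD 12m group held mice kept on that diet until 12 months (8 mice, 29 libraries). The CR 12m group was also killed at 12 months, after calorie restriction by 30% that began at 3 months (9 mice, 29 libraries). The comparison of SD 12m with SD 3m concerns age, and that of CR 12m with SD 12m concerns diet. An SD 6m group was not analysed here.

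Oxidative phosphorylation takes place in the inner mitochondrial membrane. Complex I and complex II pass electrons from NADH and succinate to ubiquinone, complex III hands them to cytochrome c, and complex IV transfers them to oxygen. Complexes I, III and IV pump protons, and ATP synthase (complex V) uses the resulting gradient to make ATP. Hepatocytes are rich in mitochondria and depend on this system, and nearly all of its subunits are encoded in the nucleus and made in most cell types, so their promoters usually carry H3K4me3 and H3K27ac. Several subunits of complex IV exist as alternative isoforms, of which one is general and another is confined to heart and skeletal muscle, testis or lung.

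Each value below is a label from 1 to 8 that the authors' ChromHMM model gave to a bin of 200 bp. State 1 (Active TSS) carries H3K4me3 and H3K27ac, and state 2 (Flanking TSS) carries these and H3K4me1. State 3 (Active enhancer 1) carries H3K27ac and H3K4me1 without H3K4me3, state 4 (Active enhancer 2) carries a weaker H3K27ac, and state 5 (Poised enhancer) carries a weak H3K4me1. State 6 (Repressed Polycomb) carries H3K27me3, state 7 carries a weak H3K4me3 and little H3K27me3 and was associated with repeats and lamina-associated domains, and state 8 (Quiescent) carries none of the marks. States 1 and 2 are called H3K4me3 states here. For each gene the state was read in the bin that holds the transcription start site (TSS) of its longest curated transcript and in the 10 bins on each side, 21 bins in all. The libraries of a group were merged before states were assigned, so each group is 1 segmentation. No difference between groups could be set against the spread between mice, no test was possible, and the intervals printed below are Wilson 95% intervals over genes. They describe the number of genes, not the animals. Where 3 values stand in a row, the first belongs to SD 3m, the next to SD 12m and the last to CR 12m.

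The labelled tissue was checked with cell type markers. The TSS bins of all 8 hepatocyte markers, such as Alb and Cps1, were in states 1 to 5 in all 3 groups, and those of all 4 neuronal markers were in state 6. Of 5 Kupffer cell and leukocyte markers, 3, 2 and 1 were in states 1 to 5 in the 3 groups. Of 3 cholangiocyte markers, 0, 1 and 3 were, and of 4 endothelial markers 3, 3 and 4 were. All 3 stellate cell markers were in states 6 to 8 in all groups, as were the 3 germ cell markers, and 0, 0 and 1 of 4 skeletal muscle markers were in states 1 to 5. In bulk liver, fewer cells of a type and less of a mark per cell cannot be told apart. The number of H3K4me3 libraries also differed, with 7, 8 and 5 in the groups, and the merged read depth is unknown. The part that cell composition and the number of libraries have in the differences below was not tested.

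Most OXPHOS genes had their TSS in an H3K4me3 state in all groups. In SD 3m, 83 of 95 genes (87.4%, interval 79.2 to 92.6%) were in state 1 or 2, in SD 12m 79 (83.2%, 74.4 to 89.4%), and in CR 12m 76 (80.0%, 70.9 to 86.8%). The same shares over all 20558 genes were 45.5%, 39.7% and 35.0%. State 1 held 61, 65 and 63 of the OXPHOS genes and state 2 held 22, 14 and 13, so the smaller total at 12 months lay in state 2. Over all genes state 1 held 34.8%, 34.4% and 29.8% and state 2 held 10.7%, 5.33% and 5.18%. The enhancer states 3 to 5 held 7, 12 and 16 of the OXPHOS genes, and states 6 to 8 held 5, 4 and 3. Over all genes these shares were 16.5%, 22.4% and 27.4%, and 38.0%, 37.9% and 37.6%. The lower share in state 2 and the higher share in states 3 to 5 at 12 months were thus seen over all genes too. Genes for the mitochondrial ribosome, of which 78 were found, had 75, 72 and 65 TSS in state 1 or 2. Genes for the cytosolic ribosome, of which 89 were found, had 78, 73 and 71. The intervals of the OXPHOS genes and of both ribosomal gene sets overlapped in every group.

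**Figure D1:**
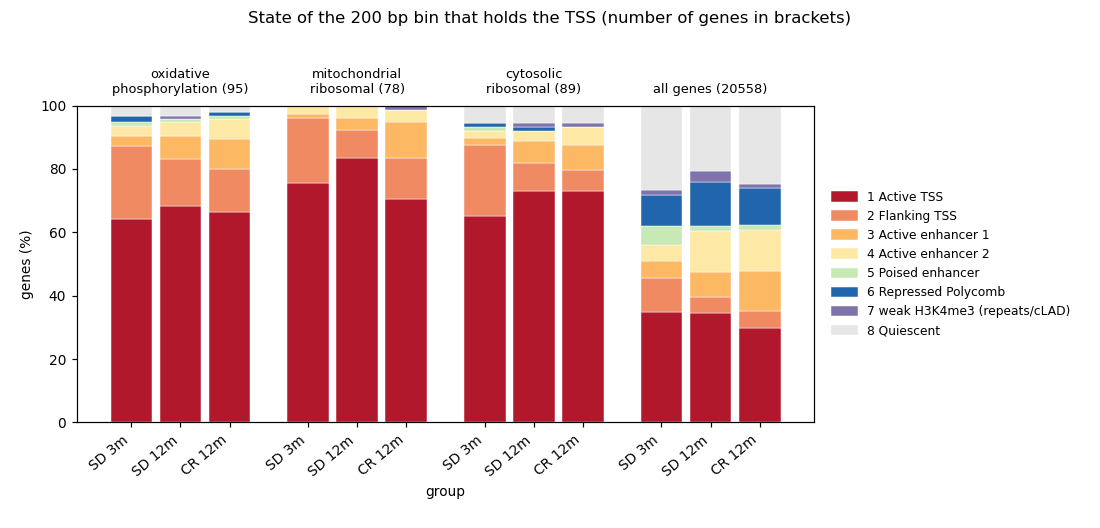
Percent of genes (vertical axis) with the TSS bin in each of the 8 states, for OXPHOS genes, mitochondrial and cytosolic ribosomal protein genes and all autosomal protein-coding genes, in SD 3m, SD 12m and CR 12m (1 bar per group). States 1 and 2 together hold 87.4%, 83.2% and 80.0% of the OXPHOS genes, against 45.5%, 39.7% and 35.0% of all genes.

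The state of the TSS bin differed between SD 3m and SD 12m in 18 OXPHOS genes (18.9%, interval 12.3 to 28.0%), against 32.3% of all genes. Between SD 3m and CR 12m it differed in 23 genes (24.2%, 16.7 to 33.7%), against 35.0% of all genes. Between SD 12m and CR 12m it differed in 20 genes (21.1%, 14.1 to 30.3%), against 26.8% of all genes. In 65 genes (68.4%) the state was the same in all 3 groups, against 55.5% of all genes. Both comparisons with SD 3m share its segmentation, so their values are given side by side only. The shares of differing genes were below the background in all 3 comparisons, although the interval reached 33.7% in the comparison of CR 12m with SD 3m and 30.3% in that of CR 12m with SD 12m. Of 78 mitochondrial ribosomal genes 13, 24 and 19 differed in the 3 comparisons, in the order above. Of 89 cytosolic ribosomal genes 22, 29 and 16 differed. These shares were below the background too, and 65.4% and 62.9% of the 2 sets had the same state in all 3 groups. The lower shares are thus not particular to OXPHOS genes.

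Of the 83 genes in an H3K4me3 state in SD 3m, 4 were outside these states in SD 12m, against 15.7% of all genes in the same position. These were Atp5d, Cox8a and Ndufb10, all from state 2 to state 3, and the assembly factor Ndufaf6, from state 1 to state 3. In CR 12m 7 of the 83 genes were outside, against 25.6% of all genes. They were again Atp5d, Cox8a and Ndufb10 in state 3, together with Ndufa13 and Ndufv3 in state 3 and Cox5b and Ndufab1 in state 4. Genes named here and below because of their states, and not by the rule for named genes, were chosen after their values were seen. None of the 12 genes outside states 1 and 2 in SD 3m was in them at 12 months. The background shares were as low as 2.48% for SD 12m and 2.08% for CR 12m. With 12 genes, finding none is therefore no result about OXPHOS genes in particular. Among the 22 genes that SD 3m had in state 2, SD 12m had 7 in state 1 (31.8%, background 35.8%) and CR 12m had 8 (36.4%, background 28.5%). Atp5k, Atp5l, Cox7a2 and Ndufaf1 were in both of these sets.

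The share in H3K4me3 states differed less just downstream. In the bin just downstream of the TSS bin, 85, 85 and 84 OXPHOS genes were in state 1 or 2, so the decline seen in the TSS bin was not present 200 bp further into the gene. Over all genes the shares there were 47.9%, 44.4% and 41.6%, against 45.5%, 39.7% and 35.0% in the TSS bin. They too differed less downstream. The single state of the downstream bin still differed from SD 3m in 16 OXPHOS genes in SD 12m (16.8%) and in 27 in CR 12m (28.4%). The shares over all genes were 30.8% and 32.4%. The H3K4me3 domain of Cox8a covered 2000 bp in SD 3m and 1400 bp in both groups at 12 months, and at 12 months it began downstream of the TSS bin. Ndufab1, the mitochondrial acyl carrier protein, had its TSS bin in state 4 in CR 12m but 9 bins of its window in states 1 or 2, against 13 in SD 3m and 8 in SD 12m.

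**Figure D2:**
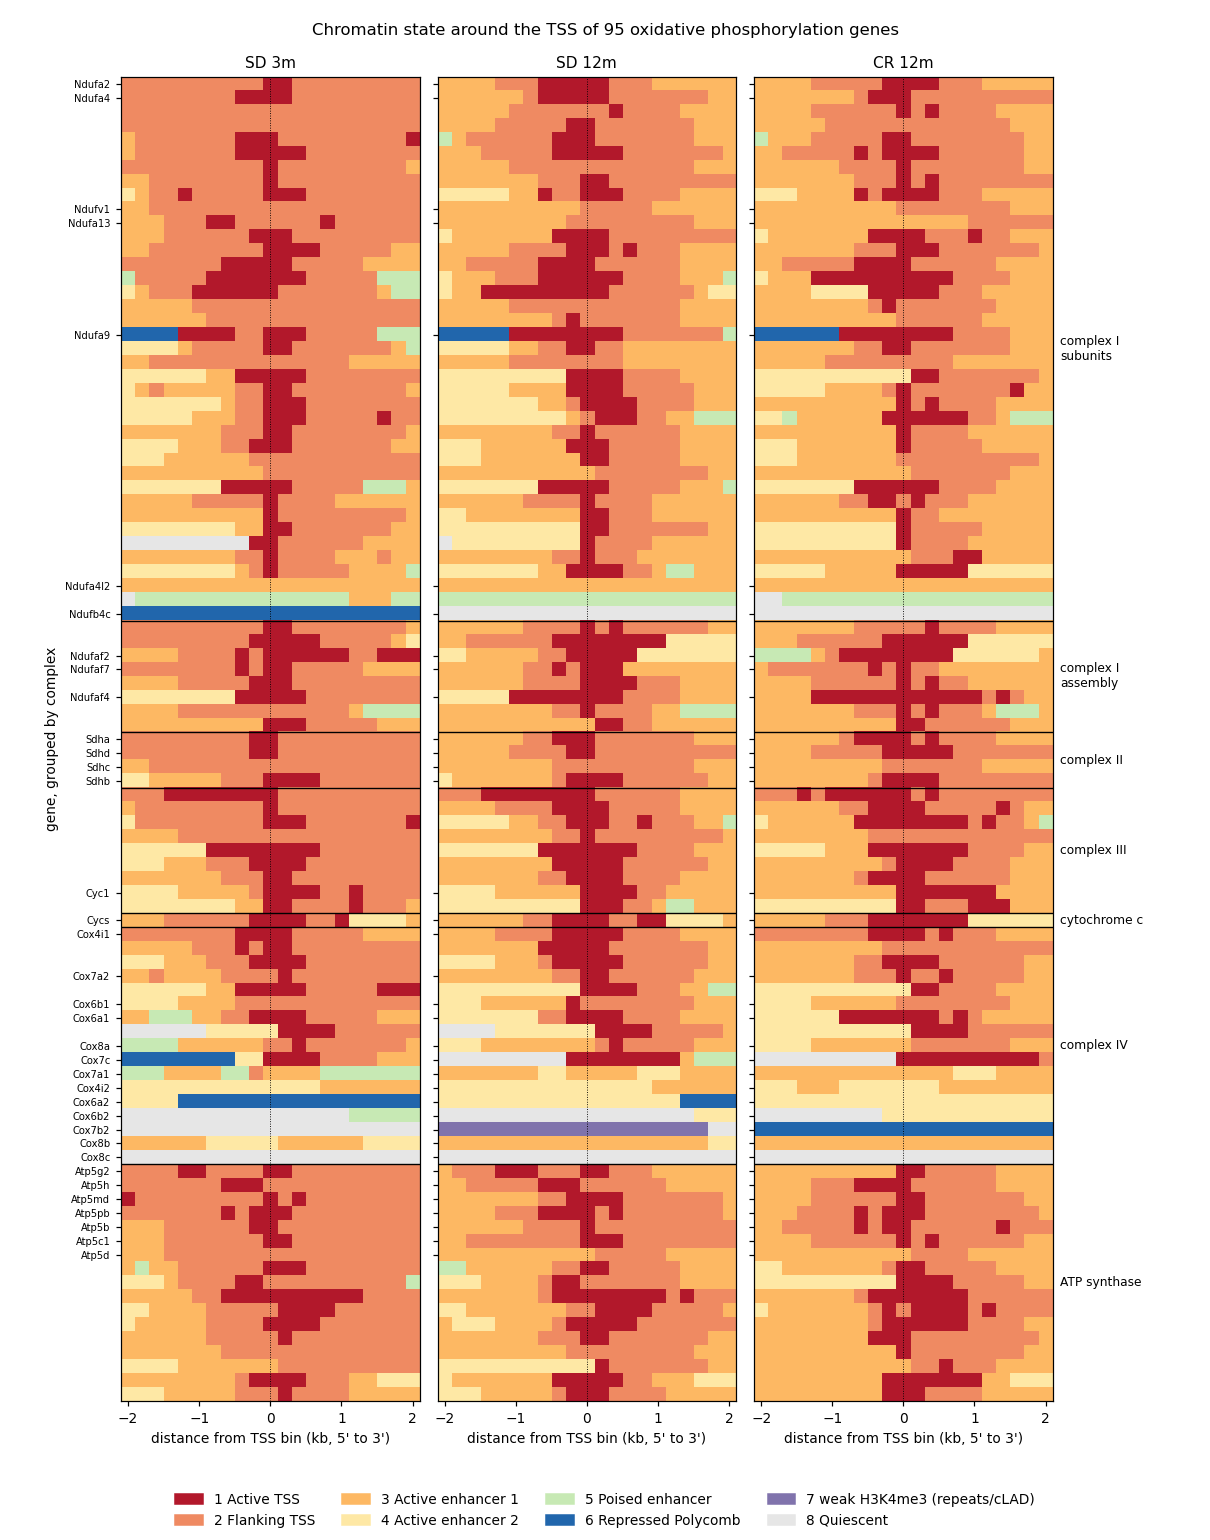
State of each 200 bp bin (colour) within 2 kb of the TSS bin for the 95 OXPHOS genes (rows, grouped by complex and ordered by their bins in state 1 or 2 in SD 3m) in SD 3m, SD 12m and CR 12m (panels). Gene symbols are given for the genes named by the rule, and the horizontal axis is the distance from the TSS bin in kb along the direction of transcription. The red and salmon blocks of states 1 and 2 around the TSS average 13.6, 9.37 and 9.33 bins from left to right.

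Complex I is the largest of the complexes. Of the 39 genes counted as its subunits by symbol, 36, 35 and 32 had the TSS in state 1 or 2, and 28 had the same state in all 3 groups. The 3 genes outside these states in SD 3m were Ndufa4l2, an alternative form of the NDUFA4 protein that hypoxia induces, and the Ndufb4 copies Ndufb4b and Ndufb4c. Across the 39 genes the median number of bins in states 1 or 2 was 14 in SD 3m and 9 in both groups at 12 months. Ndufv1 encodes the flavoprotein that binds NADH. It held 19, 5 and 8 such bins, and its TSS stayed in state 2. Ndufa9 was the complex I subunit gene whose number was larger in SD 12m than at 3 months, with 14, 15 and 12 bins. Ndufa9 was bordered by Polycomb chromatin, with 4, 5 and 6 bins of state 6 in its window, and the nearest other TSS, that of the sperm gene Akap3, lay 3954 bp away.

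The 8 Ndufaf genes encode assembly factors, which help to build complex I and are not part of it. All 8 had the TSS in state 1 or 2 in SD 3m and in CR 12m, and 7 did in SD 12m. In SD 12m all 8 held fewer bins in states 1 or 2 than in SD 3m, as did 88.1% of all genes that had any in SD 3m. Ndufaf2 held 17, 7 and 9 bins in SD 3m, SD 12m and CR 12m, and Ndufaf7, a methyltransferase, held 17, 7 and 12. Ndufaf4 held 13, 12 and 15. In 5 of the 8 genes the number was larger in CR 12m than in SD 12m, against 11.9% of all genes, many of which had no such bin. Of the 4 with a mean of at least 10 bins over these groups, 1 held more in CR 12m and 2 fewer. Among all genes with such a mean, 25.3% held more and 53.2% fewer.

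Complex II, or succinate dehydrogenase, also belongs to the tricarboxylic acid cycle. Its 4 genes kept the same TSS state in all 3 groups, state 1 for Sdha, Sdhb and Sdhd and state 2 for Sdhc. Sdha, the flavoprotein subunit, held 21, 12 and 11 bins in states 1 or 2. Sdhb, the iron-sulfur subunit, held 14, 11 and 13. The membrane anchor Sdhc held 19, 10 and 7, and the other anchor, Sdhd, held 21, 16 and 17. All 4 genes held fewer bins in both groups at 12 months than in SD 3m, and those of CR 12m and SD 12m differed in both directions. Sdhc had no bin in state 1 in any group.

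All 9 genes of complex III had the TSS in state 1 or 2 in all groups, and only Uqcr11 differed in state (2 in SD 3m and CR 12m, 1 in SD 12m). Cyc1, the cytochrome c1 subunit, held 12, 6 and 7 bins. Its unbroken domain of states 1 and 2 measured 9200 bp in SD 3m, 1200 bp in SD 12m and 1400 bp in CR 12m. Uqcrh, the hinge protein, held 21, 17 and 21. In complex III, 6 genes held more bins in CR 12m than in SD 12m, 2 as many and 1 fewer. Over all genes, many of which had no such bin, 11.9% held more and 29.6% fewer. Of the 7 complex III genes with a mean of at least 10 bins over these groups, 4 held more and 1 fewer. Among all genes with such a mean the shares were 25.3% and 53.2%. Of all mitochondrial ribosomal genes, 35.9% held more and 44.9% fewer. Cycs, which encodes the cytochrome c of somatic cells, was in state 1 in all groups and held 13, 10 and 10 bins.

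Complex IV, cytochrome c oxidase, had the lowest share of TSS in states 1 or 2, with 9, 8 and 7 of 17 genes (52.9%, 47.1% and 41.2%). Of these 17 genes, 7 are tissue-restricted isoforms, described below, and none of the 7 was in state 1 or 2. Of the other 10 genes, Cox6c was outside in all groups. Its TSS bin was in state 4, but state 1 began just downstream and 10, 9 and 10 bins of the window were in states 1 or 2. Cox7c held 8, 8 and 11 bins. Upstream of Cox7c lay 8 bins of state 6 in SD 3m and none in SD 12m or CR 12m.

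Of the 17 genes of ATP synthase, 16 had the TSS in state 1 or 2 in SD 3m and 15 in both groups at 12 months. The exceptions were Atp5mpl (states 3, 4 and 3) and, at 12 months, Atp5d. State 1 held 9, 11 and 14 of these TSS. Atp5d, the delta subunit of the central stalk, held 18, 5 and 4 bins in states 1 or 2, and its domain measured 5000, 1000 and 800 bp. Atp5g2, 1 of the 3 genes of the membrane ring subunit c, held 21, 14 and 7 bins. Atp5b, the catalytic beta subunit, held 18, 15 and 19, whereas Atp5c1, the gamma subunit, held 18, 19 and 15. The widest domain in SD 3m among the OXPHOS genes was that of Atp5h, a stator subunit, at 11800 bp, against 2800 bp in SD 12m and 2600 bp in CR 12m. Kctd2 starts 207 bp away on the other strand, so the domain of Atp5h is shared with it.

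**Figure D3:**
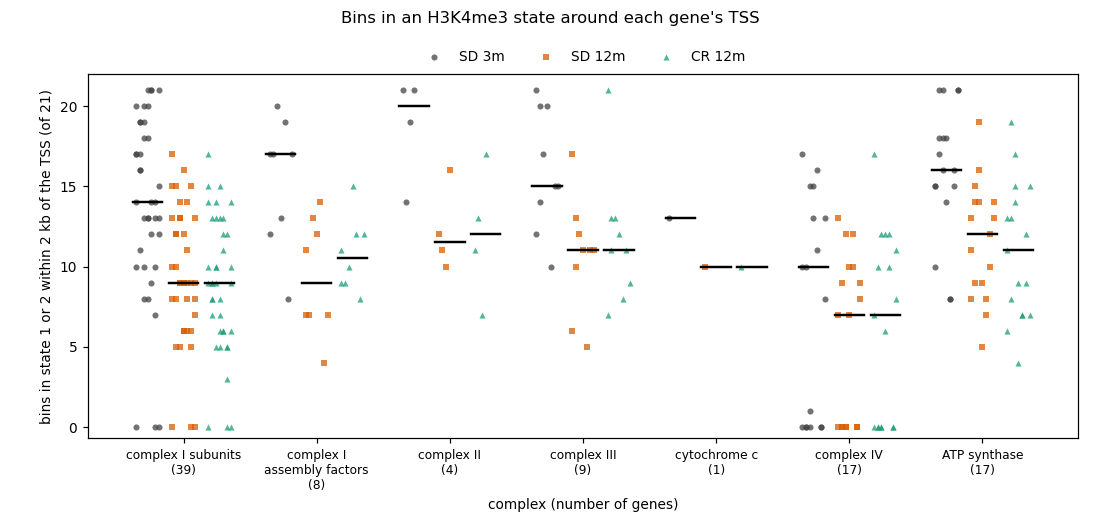
Number of bins in state 1 or 2 among the 21 bins around the TSS (vertical axis) for each OXPHOS gene (points) by complex, in SD 3m, SD 12m and CR 12m, with the median as a black line. The medians of complex I subunits are 14, 9 and 9, those of ATP synthase are 16, 12 and 11, and the points at 0 in complex IV are tissue-restricted isoforms.

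The regions in H3K4me3 states were narrower at 12 months than at 3 months. The mean number of bins in states 1 or 2 per OXPHOS gene was 13.6 ± 6.04, 9.37 ± 4.51 and 9.33 ± 4.68 (SD over 95 genes), against 6.88, 4.45 and 3.91 over all genes. The number was lower than in SD 3m for 80 genes in SD 12m (84.2%, background 47.2%) and for 78 in CR 12m (82.1%, background 49.5%). It was higher for 2 genes in SD 12m (background 3.48%) and for 3 in CR 12m (background 2.33%). The genes with more bins were Atp5c1 and Ndufa9 in SD 12m and Cox7c, Ndufaf4 and Atp5b in CR 12m.

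A gene can only have fewer bins where it had some, and OXPHOS genes had many. Genes with a mean of at least 10 bins over the 2 groups compared were therefore counted in addition, a choice made after the data were seen. Of 66 such OXPHOS genes 63 held fewer in SD 12m than in SD 3m (95.5%, background 90.7% of 6456 genes). In CR 12m 61 of 67 held fewer than in SD 3m (91.0%, background 93.6% of 5949 genes). These shares lay near the background, and so are no result about OXPHOS genes in particular. The median unbroken domain measured 3600 bp in SD 3m (86 genes), 2000 bp in SD 12m (85 genes) and 2000 bp in CR 12m (85 genes), against 3000, 1800 and 1600 bp over all genes with a domain.

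The lower numbers lay in state 2. The mean number of bins in state 1 per OXPHOS gene was 2.62, 2.99 and 3.09, whereas state 2 held 11, 6.38 and 6.23 bins and state 3 held 3.79, 7.57 and 8.25. Over all genes state 1 held 2.0, 2.08 and 1.77 bins. State 2 held 4.88, 2.38 and 2.13 bins over all genes, and state 3 held 3.18, 5.15 and 6.01. Of the bins of OXPHOS genes in states 1 or 2 in SD 3m, 31.8% were in another state in SD 12m and 32.4% in CR 12m, against 37.4% and 44.9% over all genes. Among these bins of OXPHOS genes, 92.0% in SD 12m and 91.2% in CR 12m were in state 3, against 82.7% and 81.7% over all genes. The shares were 88.2% and 88.1% in mitochondrial ribosomal genes and 92.9% and 92.8% in cytosolic ribosomal genes. They are thus not particular to OXPHOS genes. State 3 carries H3K27ac and H3K4me1 without H3K4me3.

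The edges of the domains differed most. At the TSS bin 87.4%, 83.2% and 80.0% of the genes were in states 1 or 2. At 1000 bp downstream the shares were 87.4%, 72.6% and 76.8%, and at 2000 bp downstream 55.8%, 7.37% and 13.7%. Upstream the regions were shorter in all groups, with 49.5%, 24.2% and 23.2% at 1000 bp and 17.9%, 1.05% and 2.11% at 2000 bp. Over all genes the shares 2000 bp downstream were 26.4%, 8.24% and 6.5%.

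**Figure D4:**
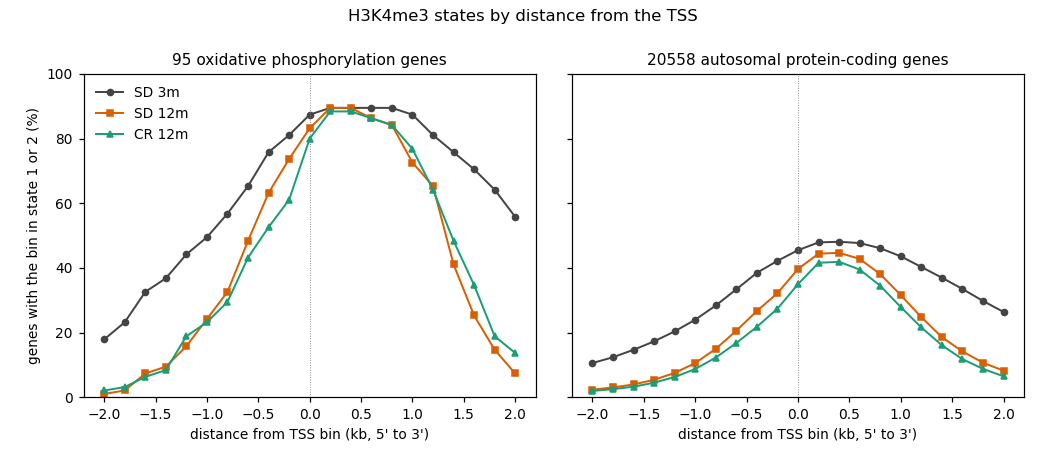
Percent of genes with the bin in state 1 or 2 (vertical axis) against the distance from the TSS bin in kb along the direction of transcription, for OXPHOS genes (left) and all autosomal protein-coding genes (right) in SD 3m, SD 12m and CR 12m. In OXPHOS genes the lines meet between 88.4% and 89.5% just downstream of the TSS and separate towards 2000 bp, where they stand at 55.8%, 7.37% and 13.7%.

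The largest differences from SD 3m towards fewer bins were found in Ndufv1, Atp5d, Ndufa2, Ndufaf2 and Ndufaf7 in SD 12m and Atp5d, Atp5g2, Ndufa13, Sdhc and Ndufv1 in CR 12m. Ndufa2 held 21, 11 and 12 bins. Ndufa13, also known as a regulator of cell death, held 18, 9 and 6. In Ndufv1 the 8 upstream bins in states 1 or 2 of SD 3m were 0 in both groups at 12 months, as were the 7 of Atp5d, and 16 bins of each gene's window were in state 3 in SD 12m. The promoter windows of 3 of these genes are shown for their composition, from 250 bases before the TSS to 30 bases from it on, 5′ to 3′ on the gene's strand, from RefSeq (GRCm38.p6), with each CpG dinucleotide in capitals.
Ndufv1, chr19:4012726-4013005, minus strand: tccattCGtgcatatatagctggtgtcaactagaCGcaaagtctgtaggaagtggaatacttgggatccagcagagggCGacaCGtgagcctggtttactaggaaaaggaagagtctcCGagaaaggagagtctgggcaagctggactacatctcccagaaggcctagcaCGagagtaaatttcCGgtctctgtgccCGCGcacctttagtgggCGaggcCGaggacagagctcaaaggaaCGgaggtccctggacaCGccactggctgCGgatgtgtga
Atp5d, chr10:80142025-80142304, plus strand: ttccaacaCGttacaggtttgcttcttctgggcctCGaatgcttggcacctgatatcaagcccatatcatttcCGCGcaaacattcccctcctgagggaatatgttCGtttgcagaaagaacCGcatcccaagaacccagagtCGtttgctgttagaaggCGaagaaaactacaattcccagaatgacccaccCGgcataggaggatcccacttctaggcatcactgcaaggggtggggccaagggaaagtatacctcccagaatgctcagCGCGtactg
Ndufaf2, chr13:108158596-108158875, minus strand: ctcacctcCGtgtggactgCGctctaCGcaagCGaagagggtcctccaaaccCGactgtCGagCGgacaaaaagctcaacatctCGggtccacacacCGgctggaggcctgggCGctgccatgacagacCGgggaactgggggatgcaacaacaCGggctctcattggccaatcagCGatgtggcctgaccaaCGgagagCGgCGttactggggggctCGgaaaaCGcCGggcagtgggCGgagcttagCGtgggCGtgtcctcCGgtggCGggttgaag
These windows held 14, 11 and 24 CpG and 54.6%, 51.1% and 63.9% G or C. None of the 3 is poor in CpG like the restricted isoforms below.

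CR 12m and SD 12m can be compared directly, at equal age. Between them, 33 OXPHOS genes held fewer bins in states 1 or 2 in CR 12m (34.7%, background 29.6%), 33 held more (34.7%, background 11.9%) and 29 held as many. OXPHOS genes had broader domains than most genes, so genes with a mean of at least 10 bins over these 2 groups were compared in addition. Of 46 such OXPHOS genes 14 held fewer in CR 12m (30.4%, background 53.2% of 3697 genes) and 18 held more (39.1%, background 25.3%). Of 23 mitochondrial ribosomal genes 9 held fewer and 11 more, and of 46 cytosolic ribosomal genes 17 held fewer and 17 more. The numbers of OXPHOS genes are thus not particular to them. Without the limit on bins, 35 of 78 mitochondrial ribosomal genes held fewer and 28 more, and 32 of 89 cytosolic ribosomal genes held fewer and 25 more. Of the OXPHOS bins in states 1 or 2 in SD 12m, 11.9% were in another state in CR 12m, against 20.6% over all genes.

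By complex, complex I subunits had 17 genes with fewer bins in CR 12m than in SD 12m and 12 with more, and ATP synthase had 9 and 4. Complex IV had 2 and 4. Downstream of the TSS SD 12m had a mean of 5.76 bins and CR 12m one of 6.04, and upstream it was 2.78 and 2.48. No replicate check exists for any of these differences.

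The clearest contrast within the set lay between the general and the tissue-restricted isoforms. The 8 restricted genes Cox4i2, Cox6a2, Cox6b2, Cox7a1, Cox7b2, Cox8b, Cox8c and Ndufa4l2 had no TSS in state 1 or 2 in any group. With 0 of 8, the upper Wilson limit is 32.4%. In their windows of 21 bins a single bin was in state 1 or 2, in Cox7a1 in SD 3m. Their general partners Cox4i1, Cox6a1, Cox6b1, Cox7a2 and Ndufa4 were in state 1 or 2 in all groups, with 17, 13 and 17 bins for Cox4i1, 11, 10 and 10 for Cox6a1, 13, 9 and 8 for Cox6b1, 15, 10 and 12 for Cox7a2 and 21, 13 and 14 for Ndufa4. Cox8a held 10, 7 and 7.

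**Figure D5:**
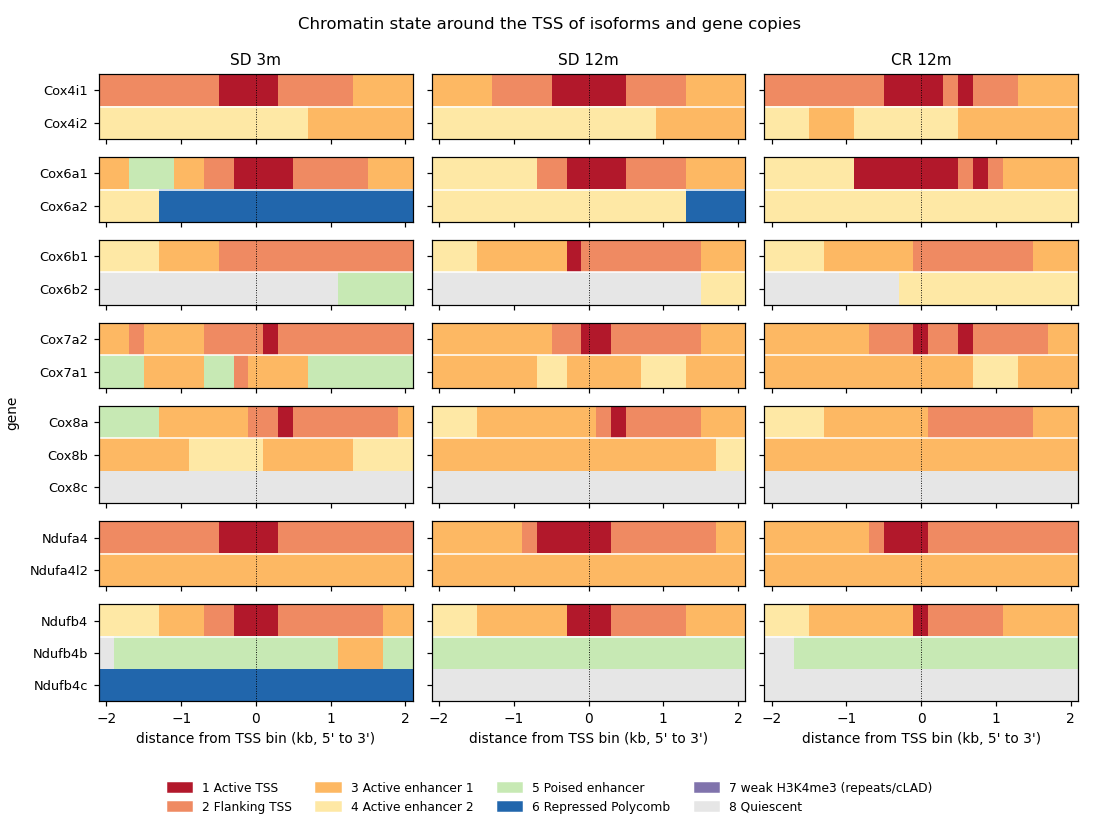
State of each 200 bp bin (colour) within 2 kb of the TSS bin for isoforms and copies of OXPHOS genes (rows, the general gene first in each block) in SD 3m, SD 12m and CR 12m (panels). The horizontal axis is the distance from the TSS bin in kb along the direction of transcription. Each general gene has a block of states 1 and 2, while the restricted isoforms and the copies of Ndufb4 have at most 1 such bin.

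The restricted isoforms lay in different kinds of chromatin. Cox6a2, of heart and skeletal muscle, had its TSS within 36400 bp of unbroken state 6 in SD 3m, and in state 4 in SD 12m and CR 12m. Within 20 kb of its TSS state 6 took 59.7%, 46.8% and 44.8% of the bins. The testis isoform Cox8c was in state 8 in all groups, with 39.8%, 36.8% and 36.3% of the bins within 20 kb in state 6. Cox6b2, also of testis, was in state 8 in SD 3m and SD 12m and in state 4 in CR 12m. Cox7a1 and Cox8b, of heart and skeletal muscle, lay instead in enhancer states. Cox7a1 was in state 3 in all groups, and Cox8b in states 4, 3 and 3. Cox4i2, the lung isoform, was in state 4 and Ndufa4l2 in state 3 in all groups. For these 4 genes, the share of bins within 20 kb in state 3 in SD 3m was 46.3% (Cox7a1), 45.8% (Cox8b), 63.7% (Cox4i2) and 13.9% (Ndufa4l2). Ckm, Myh4, Acta1 and Myod1, the skeletal muscle markers, were in states 6 or 8 except for Ckm in state 4 in CR 12m.

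The promoter sequences of 3 pairs are printed to show how general and restricted isoforms differ in CpG content. Each line gives 250 bases before the TSS and 30 bases from it on, 5′ to 3′, with CpG in capitals, from RefSeq (GRCm38.p6).
Cox6b1, chr7:30626085-30626364, minus strand: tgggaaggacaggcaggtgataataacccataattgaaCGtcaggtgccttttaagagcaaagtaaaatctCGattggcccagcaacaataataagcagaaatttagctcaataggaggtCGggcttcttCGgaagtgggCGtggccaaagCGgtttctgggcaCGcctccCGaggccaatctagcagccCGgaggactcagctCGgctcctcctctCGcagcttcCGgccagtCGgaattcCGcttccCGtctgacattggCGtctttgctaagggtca
Cox6b2, chr7:4753065-4753344, minus strand: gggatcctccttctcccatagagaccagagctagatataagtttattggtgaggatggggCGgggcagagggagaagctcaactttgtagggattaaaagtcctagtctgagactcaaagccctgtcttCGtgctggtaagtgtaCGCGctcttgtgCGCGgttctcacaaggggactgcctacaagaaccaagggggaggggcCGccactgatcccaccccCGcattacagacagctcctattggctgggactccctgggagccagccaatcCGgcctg
Cox7a2, chr9:79759824-79760103, minus strand: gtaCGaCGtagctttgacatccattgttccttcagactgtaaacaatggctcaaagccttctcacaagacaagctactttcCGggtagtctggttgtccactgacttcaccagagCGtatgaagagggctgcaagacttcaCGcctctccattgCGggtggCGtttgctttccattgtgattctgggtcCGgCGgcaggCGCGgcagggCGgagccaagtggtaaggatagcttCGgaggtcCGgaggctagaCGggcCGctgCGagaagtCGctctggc
Cox7a1, chr7:30183921-30184200, plus strand: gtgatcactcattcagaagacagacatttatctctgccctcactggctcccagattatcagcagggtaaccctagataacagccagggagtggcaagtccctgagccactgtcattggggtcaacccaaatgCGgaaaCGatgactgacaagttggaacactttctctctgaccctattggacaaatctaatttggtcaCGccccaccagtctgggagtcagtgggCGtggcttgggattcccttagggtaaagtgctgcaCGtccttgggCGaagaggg
Cox8a, chr19:7217587-7217866, minus strand: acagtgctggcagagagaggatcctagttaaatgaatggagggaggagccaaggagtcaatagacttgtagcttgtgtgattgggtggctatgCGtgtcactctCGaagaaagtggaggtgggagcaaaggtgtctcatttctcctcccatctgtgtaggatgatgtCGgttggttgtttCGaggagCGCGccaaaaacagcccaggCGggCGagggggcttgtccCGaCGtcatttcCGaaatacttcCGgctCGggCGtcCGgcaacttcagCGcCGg
Cox8b, chr7:140900417-140900696, minus strand: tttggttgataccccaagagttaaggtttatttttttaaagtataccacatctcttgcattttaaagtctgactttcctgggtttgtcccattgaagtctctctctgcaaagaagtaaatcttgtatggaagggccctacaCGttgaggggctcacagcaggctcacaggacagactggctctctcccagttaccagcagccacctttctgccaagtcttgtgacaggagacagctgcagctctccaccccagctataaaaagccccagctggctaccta
The windows of the general genes held 16 CpG (Cox6b1), 18 (Cox7a2) and 17 (Cox8a), and those of their restricted partners 9 (Cox6b2), 6 (Cox7a1) and 1 (Cox8b). G or C made up 53.6% and 56.4% in the Cox6b pair, 56.4% and 52.1% in the Cox7a pair and 55.4% and 47.5% in the Cox8 pair, the general gene first. The motif TATAAA was found in the printed window of Cox8b, starting 4 bases after the TSS, and the ETS motif, as ACTTCCGG, in that of Cox8a. The SP1 motif GGGCGG was found in those of the restricted Cox6b2 and the general Cox7a2.

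In the whole RefSeq windows of 300 bases, which were matched for 76 of the 95 genes, the median ratio of observed to expected CpG was 0.833, against 0.597 in 16457 autosomal protein-coding genes and 0.801 in 7644 of them with the TSS in state 1 or 2 in SD 3m. For the 4 restricted isoforms with a window (Cox6b2, Cox7a1, Cox7b2 and Cox8b) the median was 0.382. The median G or C content of the 76 genes was 58.5%.

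Cox7b2, a testis isoform, had a different TSS state in each group, namely 8, 7 and 6. It was the single gene of the 95 with a different state in each group, against 1035 of all 20558 genes. In SD 3m the TSS lay in an unbroken stretch of state 8 of 1006600 bp, and all 528 bins of the gene, which spans 105383 bp, were in state 8. In SD 12m state 6 held 351 of them, state 7 held 9 and state 8 held 168, and in CR 12m 272 were in state 6 and 256 in state 8. These 351 and 272 bins were all the bins of state 6 in the gene bodies of the 95 genes in SD 12m and CR 12m. Over the gene bodies of all genes, state 6 took 6.54%, 10.9% and 8.45%. There was no other TSS within 100 kb of that of Cox7b2 in the annotation used.

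Ndufb4 encodes a subunit of complex I and has close copies, Ndufb4b and Ndufb4c. The TSS of Ndufb4 was in state 1 in all groups, with 12, 8 and 6 bins in states 1 or 2. That of Ndufb4b was in state 5 in all groups. Ndufb4c was in state 6 in SD 3m, within a stretch of 43600 bp, and in state 8 in SD 12m and CR 12m. Neither copy had a bin in states 1 or 2. Reads that fit several copies equally well were discarded by the authors' filter on mapping quality, so the states of these genes are uncertain. Ndufb4b has only a predicted transcript.

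Candidate motifs of factors known for OXPHOS promoters were counted in the 300-base windows, on both strands. NRF1, a factor that drives nuclear genes of mitochondrial proteins, has the motif GCGCANGC, which was in 25 of 76 windows (32.9%), against 13.8% of all 16457 windows and 23.3% of those of genes in state 1 or 2. YY1 (AANATGGC) was in 15 (19.7%, against 6.65% and 9.93%). The ETS motif of GABPA (CCGGAAGT) was in 5 (6.58%, against 5.45% and 10.5%), and SP1 (GGGCGG) in 35 (46.1%, against 47.4% and 67.4%). The motif of ESRRA (TCAAGGTCA) was in the windows of Atp5g3 and Sdhd (2.63%, against 0.334% and 0.222%), and TATAAA in 8 (10.5%, against 13.6% and 6.41%). At least 1 of the first 3 factors named (NRF1, YY1 and ETS) had a motif in 40 windows (52.6%), against 23.0% and 38.1%. In mitochondrial ribosomal genes the NRF1 motif was in 30.4% of 69 windows and the YY1 motif in 30.4%. A motif of at least 1 of the 3 factors was in 65.2% of these windows and in 49.3% of 67 cytosolic ribosomal windows. The higher combined share is thus not particular to OXPHOS genes. NRF1 matches can overlap each other, since the motif is close to its own reverse complement. These are matches of letters, not sites of binding.

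Among the genes with an NRF1 match were Cycs and Sdha, Sdhb and Sdhd of complex II, whose TSS were in state 1 in all groups. For Sdhc no window was searched. The promoters are printed to show where the matches lie, from 250 bases before the TSS to 30 bases from it on, with the NRF1 matches in capitals, from RefSeq (GRCm38.p6).
Cycs, chr6:50566540-50566819, minus strand: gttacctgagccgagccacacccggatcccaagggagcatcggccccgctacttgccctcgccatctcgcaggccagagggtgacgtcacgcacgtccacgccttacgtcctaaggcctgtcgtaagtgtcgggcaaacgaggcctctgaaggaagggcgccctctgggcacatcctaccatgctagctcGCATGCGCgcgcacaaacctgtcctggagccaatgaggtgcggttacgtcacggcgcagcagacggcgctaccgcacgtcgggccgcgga
Sdha, chr13:74350211-74350490, minus strand: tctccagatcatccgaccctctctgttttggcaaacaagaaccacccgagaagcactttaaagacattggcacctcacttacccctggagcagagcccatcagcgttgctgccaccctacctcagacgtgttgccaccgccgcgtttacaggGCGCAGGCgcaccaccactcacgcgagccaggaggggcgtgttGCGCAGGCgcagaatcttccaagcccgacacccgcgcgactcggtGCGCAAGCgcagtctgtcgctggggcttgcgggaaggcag
Sdhb, chr4:140961021-140961300, plus strand: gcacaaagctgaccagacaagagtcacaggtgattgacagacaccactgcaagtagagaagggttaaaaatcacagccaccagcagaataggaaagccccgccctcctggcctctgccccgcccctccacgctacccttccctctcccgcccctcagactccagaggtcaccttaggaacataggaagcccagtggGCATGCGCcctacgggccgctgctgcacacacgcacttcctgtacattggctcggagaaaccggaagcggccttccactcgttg
Sdhd, chr9:50603820-50604099, minus strand: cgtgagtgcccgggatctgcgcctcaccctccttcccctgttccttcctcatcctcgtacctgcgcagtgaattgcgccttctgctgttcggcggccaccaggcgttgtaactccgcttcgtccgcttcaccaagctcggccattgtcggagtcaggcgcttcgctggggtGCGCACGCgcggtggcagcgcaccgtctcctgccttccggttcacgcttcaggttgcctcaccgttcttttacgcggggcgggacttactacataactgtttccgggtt
The match of Cycs began 60 bases before the TSS and that of Sdhb 54 bases before it. Sdhd had a match 79 bases before the TSS, and Sdha had 3, at 98, 55 and 10 bases before it.

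OXPHOS genes often had the TSS of another gene nearby, counted for any type of gene on either strand. Such a TSS need not mean a shared promoter. For Atp5b it was that of Snord59a, 835 bp away on the same strand. Another TSS lay within 2 kb for 39 of 95 genes (41.1%), against 22% of all genes, and a divergent TSS within 1 kb for 29 (30.5%), against 12.5%. Another TSS within 2 kb was also found in mitochondrial (44.9%) and cytosolic (50.6%) ribosomal genes, so it is not particular to OXPHOS promoters. The neighbour of Sdhd is Timm8b, 52 bp away, that of Ndufa7 is the ribosomal gene Rps28, 10 bp away, and that of Ndufb5 is Mrpl47, 308 bp away. No 2 OXPHOS genes shared a promoter. The 39 genes with a close neighbour all had the TSS in state 1 or 2 in SD 3m and in SD 12m, and 38 did in CR 12m. The 56 genes without one had 44, 40 and 38. Over all genes the shares were 71.7%, 66.3% and 61.5% with a close neighbour and 38.1%, 32.2% and 27.5% without. The mean number of bins was 17.3, 12.3 and 12.2 with a close neighbour and 11.1, 7.30 and 7.32 without, against 11.8, 7.94 and 7.21, and 5.48, 3.47 and 2.97, for all genes in the same classes.

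Genes around the pathway, listed by role, were counted in the same way. All 36 further assembly factors of complexes I to V, such as Surf1 and Bcs1l, had the TSS in state 1 or 2 in SD 3m, and 32 and 31 did at 12 months in SD 12m and CR 12m. All 16 regulators of mitochondrial genes were in these states in SD 3m, and 15 and 14 at 12 months. The 2 outside in CR 12m were Ppargc1a (PGC-1α), a coactivator of mitochondrial biogenesis, in states 2, 2 and 3, and Sp1, in states 1, 4 and 4. The 12 genes of the tricarboxylic acid cycle had 12, 11 and 9 TSS in state 1 or 2, and the 13 genes of coenzyme Q synthesis had 11, 9 and 10. The mean number of bins in states 1 or 2 was 13.2, 8.42 and 8.03 for the assembly factors and 16.2, 11.3 and 10.8 for the regulators. Over all genes the shares in state 1 or 2 were 45.5%, 39.7% and 35.0% and the mean numbers of bins 6.88, 4.45 and 3.91. None of these 77 genes had its TSS in states 6 to 8 in any group, against 38.0%, 37.9% and 37.6% of all genes.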

How the data were processed

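Per the methods of the authors, reads were placed on mm10 by bwa aln (0.6.2-r126), those of low mapping quality, outside chromosomes 1 to 19 and X or duplicated were removed (samtools 0.1.18), and the libraries of each group were merged. They then trained 1 ChromHMM model with 8 states, and the deposited value is the state label of each bin of 200 bp, not a signal. Of 108 libraries, the 88 of the 3 groups analysed stand behind the 3 segmentations, which were assigned to groups by name and hold 13168874 bins each.

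TSS came from the longest curated RefSeq transcript by genomic span (GRCm38.p6), for 97.4% of all genes, and otherwise from a predicted one. States were read in Python 3.11.15 (numpy 2.4.6, pandas 2.3.3, scipy 1.17.1, matplotlib 3.10.9), with no filter, and the code was tested on simulated segmentations. Genes were compared as counts, with Wilson 95% intervals over genes and the same counts over all autosomal protein-coding genes. A domain is an unbroken run of states 1 and 2 nearest the TSS. The genes, lists and comparison sets were chosen with earlier results of these data known. Genes were named when they belong to isoform pairs, complex II, Cyc1 or Cycs, show the 5 largest differences from SD 3m in either direction, lie in states 6 to 8 (up to 20 genes), are among the 5 with most bins in SD 3m or share a promoter with another of the genes. Promoter windows were matched by gene identifier. No entry was found for Atp5a1, Atp5mpl, Cox4i1, Cox4i2, Cox6a2, Cox6c, Cox8c, Cyc1, Ndufa2, Ndufa4l2, Ndufaf6, Ndufb4c, Ndufb9, Ndufs1, Sdhc, Uqcrb, Uqcrc2 and Uqcrq, and 1 further gene is not reported by name here.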

Additional observations from a re-analysis of the deposited data

Results flagged for a closer look

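In 4 OXPHOS genes the number of bins in states 1 or 2 within 2 kb of the TSS differed from SD 3m in opposite directions in SD 12m and CR 12m. Given with SD 3m first and CR 12m last, Atp5b held 18, 15 and 19 bins, a difference of 4 bins between CR 12m and SD 12m. Ndufaf4 held 13, 12 and 15, a difference of 3 bins. Atp5c1 held 18, 19 and 15, so CR 12m minus SD 12m was -4 bins. Ndufa9 held 14, 15 and 12, and the same difference was -3 bins. All 4 TSS were in state 1 in all groups. The differences were not tested, as each group is 1 segmentation. How many of all genes differed in opposite directions was not counted, so the number of 4 is no result about OXPHOS genes in particular.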

How the results depend on the processing

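The 13 percentages and means were recomputed under 15 alternatives, 1 of them chosen after seeing the data, which gave 121 values, of which 78 lay within the interval of the reported value. For the means this interval was computed over bins and not over genes. Bins of 1 gene are not independent, so it is too narrow, and the count of 78 depends on it. The alternative of 79 structural subunits leaves out the 8 Ndufaf assembly factors and also the 8 restricted isoforms. With it, 94.9% and 91.1% of the TSS were in state 1 or 2 in SD 3m and SD 12m. The mean bins were 14.8, 10.3 and 10.1, 89.9% of the genes held fewer bins in CR 12m than in SD 3m, and 2.53% had no bin in all groups. No restricted isoform had its TSS in state 1 or 2 in any group, so the higher TSS shares follow from leaving these genes out. Without members that have another TSS within 2 kb, the TSS shares were 78.6%, 71.4% and 67.9% and the mean bins 11.1, 7.30 and 7.32. With state 1 alone, the TSS shares were 64.2%, 68.4% and 66.3%, the mean bins 2.62, 2.99 and 3.09, the genes with fewer bins 17.9% in SD 12m and 26.3% in CR 12m, and those with none 26.3%, 20% and 24.2%. The order of the 3 groups in the share of TSS and in the mean was thus not kept with state 1 alone, and CR 12m also had a slightly higher mean than SD 12m without close neighbours and within 5 kb. In the bin just downstream, as with the lowest-numbered state among the TSS bin and its neighbours, the TSS shares were 89.5% in SD 12m and 88.4% in CR 12m, and under the latter 13.7% of the TSS states differed in CR 12m. With 5 classes of states (1 and 2 as one, 3 to 5 as one) 7.37% and 11.6% differed in SD 12m and CR 12m, against 22.7% and 25.5% of all genes. Within 1 kb (11 bins) the mean bins were 8.61, 7.47 and 7.14, and 61.1% and 63.2% held fewer, while within 5 kb (51 bins) the means were 16.9, 9.68 and 9.76. Among genes with at least 1 bin in SD 3m, 93.0% of OXPHOS genes held fewer in SD 12m and 90.7% in CR 12m, against 88.1% and 92.4% of all such genes, a choice that rests on SD 3m alone. With a mean of at least 10 bins over the 2 groups compared, added after seeing the data, the shares were 95.5% and 91.0%, against 90.7% and 93.6%. The cause of these differences was not tested beyond the construction of each alternative. No paired analysis was possible because each group is 1 segmentation of merged libraries and no replicate has values of its own, so leaving out each library in turn was not run either. The read depth of the merged libraries is unknown, and with it the number of bins in which a mark could be detected.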

Other observations

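The X-linked subunits, which the choice of autosomal genes leaves out, were read in the same way. Cox7b was in state 1 in all groups, with 12, 9 and 10 bins in states 1 or 2 in SD 3m, SD 12m and CR 12m, and Ndufb11 was in state 1 with 17, 16 and 13. Ndufa1 was in state 7 in all groups, with no bin in states 1 or 2. No autosomal OXPHOS gene had its TSS in state 7 in more than 1 group.

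Over the bodies of the 95 genes, state 3 took 22.9%, 29.2% and 33.5% of the bins in the same order of groups, against 17.0%, 18.2% and 21% over all genes. The median transcript spanned 7082 bp, against 16459.5 bp over all genes, so the promoter takes a larger share of an OXPHOS gene. Among the genes of coenzyme Q synthesis, Coq8a and Coq10a were in state 3 in all groups, and Coq2 was in states 1, 5 and 4. These genes were named after their values were seen.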
